A study of Mus musculus with 2 samples.

Results

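The genes described here are the organic ion, drug and metabolite transporters of the mouse kidney. They are the genes whose symbol belongs to the solute carrier families Slc10, Slc13, Slc15, Slc16, Slc17, Slc19, Slc22, Slc23, Slc28, Slc29 and Slc47, or begins with Slco. The rule takes 80 of the 19829 genes listed and uses no measured value. Bulk RNA-seq of whole mouse kidney was compared between a control (WT+AKI) and an Inmt transgenic mouse (TG+AKI), with 1 library in each group, to ask which transcripts differ when indolethylamine N-methyltransferase is overexpressed in the injured kidney. According to the methods the animals were male C57BL/6 mice. The transgene was confined to the proximal tubule, the nephron segment that reclaims most of the filtrate, and the promoter that drives it is not given in the sources used here. Controls were wild-type littermates. By the methods both groups received high-dose voclosporin, a calcineurin inhibitor, and went through bilateral renal ischemia for 30 min and reperfusion at 14 weeks of age. AKI stands for acute kidney injury, which the study's supplement ascribes to voclosporin where it spells out the group names. The collection time is given as 48 h in one place and 24 h in another. Voclosporin was injected intraperitoneally at 30 mg/kg/day from 8 weeks of age, for 2 weeks in one account and 6 weeks in another. The series design names it for both genotypes, whereas the treatment label of both samples says that none was given. In its title the transgenic sample is also described as a conditional knockout.

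These carriers move small organic molecules across the tubule cell. Organic anion and cation transporters on the basolateral side, which faces the blood, load drugs, toxins and metabolic waste into the cell, and exchangers on the apical side, which faces the urine, release them. Other families work in the opposite direction and take sulfate, citrate, peptides, lactate, urate, bile acids, vitamins and nucleosides back from the filtrate. Injured proximal tubule cells are known to lose many of these proteins.

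The libraries held 38542764 reads in WT+AKI and 36427421 in TG+AKI, as recovered from the deposited values. A normalized value of 1 stood for 42.4 reads in the first library and 33.1 in the second. Below, paired values name WT+AKI first and TG+AKI second. Inmt, the gene the transgene carries, read 10.4 (443 reads) and 403 (13339 reads), which goes with the TG label and not with a knockout. All 25 proximal tubule markers and all 6 podocyte markers were present, as the tissue label requires. With 1 library a group, no difference between the groups could be tested, and it includes the difference between 2 animals. Each ratio of TG+AKI to WT+AKI is given with an exact 95% Clopper-Pearson interval, in brackets, which covers counting error only. In whole kidney, fewer cells of a type and less RNA per cell cannot be told apart.

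Many of the highest ratios belong to a run of Slc22 genes on chromosome 19 (GRCm38, chr19:7673075-8628299). In chromosome order these are Slc22a19, Slc22a26, Slc22a27, Slc22a28, Slc22a29, Slc22a30, Slc22a8 and Slc22a6. Slc22a28 and Slc22a30 are near-identical copies, with 1636 of 1656 coding bases the same (98.8%, GENCODE M21). Slc22a27 and Slc22a29 shared 97.3% of their aligned coding bases, and either of them shared between 91.7% and 92.4% with Slc22a28 and Slc22a30. Slc22a19 and Slc22a26 matched each other and these copies at 74.3% to 76.4%, and Slc22a8 matched Slc22a6 at 62.9%. Reads were on average 100 bases long, and 497 of the 1557 coding windows of that length in Slc22a28 also occur in Slc22a30, against 25 in Slc22a29 and 2 in Slc22a27. The first stretch below (coding bases 8 to 107) is one that reads cannot assign between Slc22a28 and Slc22a30, and capitals mark bases that differ from Slc22a28.
Slc22a28: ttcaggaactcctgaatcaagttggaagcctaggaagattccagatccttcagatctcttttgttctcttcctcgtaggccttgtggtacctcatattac
Slc22a30: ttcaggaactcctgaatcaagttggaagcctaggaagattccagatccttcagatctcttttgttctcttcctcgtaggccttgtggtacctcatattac
Slc22a29: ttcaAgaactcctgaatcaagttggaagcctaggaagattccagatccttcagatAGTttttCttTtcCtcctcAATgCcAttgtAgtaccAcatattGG
Slc22a27: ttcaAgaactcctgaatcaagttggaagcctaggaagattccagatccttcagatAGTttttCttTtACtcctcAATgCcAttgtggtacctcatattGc

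The second stretch (coding bases 630 to 729) holds 4 differences between Slc22a28 and Slc22a30, the most of any window of this length aligned without gaps, so that reads here can be assigned. Slc22a29 differed from Slc22a28 at 8 bases of it and Slc22a27 at 13.
Slc22a28: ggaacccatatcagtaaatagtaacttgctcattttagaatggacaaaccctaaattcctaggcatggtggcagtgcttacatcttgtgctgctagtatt
Slc22a30: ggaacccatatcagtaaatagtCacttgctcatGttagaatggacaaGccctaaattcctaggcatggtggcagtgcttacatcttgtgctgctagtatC
Slc22a29: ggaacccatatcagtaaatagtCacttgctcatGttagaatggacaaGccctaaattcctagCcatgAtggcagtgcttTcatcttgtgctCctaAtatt
Slc22a27: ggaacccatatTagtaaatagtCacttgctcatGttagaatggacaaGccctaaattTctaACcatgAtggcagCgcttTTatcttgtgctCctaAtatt

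Of the 80 transporter genes, 72 reached a value of 1 in one library or both. Among these, 24 were at least 2-fold higher in TG+AKI (33.3%), where 7.02% of all 14997 genes that passed the same filter were. Another 8 were at least 2-fold lower (11.1%), where 10.5% of all genes were. The fold is taken on log2(value + 0.1), which understates the change of low genes. The median difference of the 72 was 0.63 on this log2 scale, a 1.55-fold higher value, beside a median of -0.02 over all genes. In all, 53 lay above 0 and 19 under it. The counting interval of the ratio lay wholly above 1 for 49 genes, wholly below 1 for 17, and held 1 for 6. With both libraries scaled to the same total, which moved the median of all genes by -0.27, the split was 18 higher to 15 lower (25% and 20.8%), beside 4.6% and 15.3% of all genes. With the median ratio of genes of at least 100 set to 1, which moved it by -0.14, the split was 23 to 12 (31.9% and 16.7%), beside 5.63% and 12.8%. Directions near 0 thus depend on the scaling. The transporter median lay 0.65 above that of all genes as deposited. Rescaling a library moves both medians nearly alike, so this gap is no check on the scaling.

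**Figure D1:**
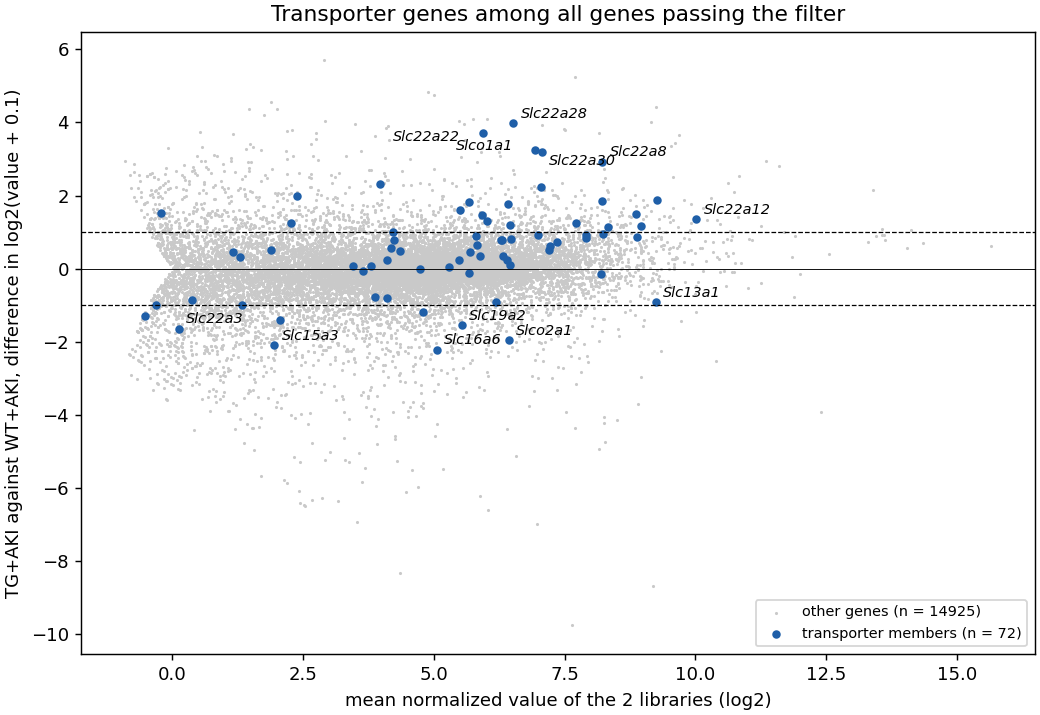
Each point is 1 gene that passed the filter, with the mean normalized value of both libraries on the x axis (log2) and the difference between TG+AKI and WT+AKI in log2(value + 0.1) on the y axis, dashed lines marking 2-fold. The 72 transporter genes (blue) lie mostly above 0, with 24 past the upper line and 8 past the lower one.

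The medians of 3 other carrier groups, taken by family name in the same way, lay between those of the transporter genes and of all genes. Of the amino acid carrier families, 42 of 45 genes passed, with 8 higher, 6 lower and a median of 0.30. The inorganic ion families had 8 higher and 4 lower of 38 (median 0.36). The mitochondrial Slc25 family had 2 higher and 2 lower of 42 (median 0.28). The differences near the 2-fold line were graded. Slc22a17 (1.01), Slc17a3 (1.15) and Slc47a1 (1.17) were just inside, and Slc17a9 (-0.98) was just outside, beside Slc10a6 (3.42 and 1.66).

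The Slc22 family held most of the higher genes. All 23 of its genes passed the filter, 13 were at least 2-fold higher and 2 lower, and the median difference was 1.31. Organic anion carriers of all families together gave 14 higher and none lower of 22, with a median of 1.43, where Slc22a22 is counted in and Slco2a1 apart, as a prostaglandin carrier. Slc22a6 (OAT1), an uptake route for indole acids and many drugs, read 263 (11147 reads) and 963 (31904 reads). The ratio was 3.66 (3.59 to 3.74). Slc22a8 (OAT3), which handles bulkier anions at the same membrane, read 69.6 (2951 reads) and 529 (17503 reads), a ratio of 7.59 (7.3 to 7.9). Per kb of transcript, Slc22a6 stood at 66 and 242 and Slc22a8 at 20.2 and 153, so Slc22a8 was the smaller share of Slc22a6 in the control. Slc22a7 (OAT2) read 22.5 and 79.7, from 956 and 2639 reads, a ratio of 3.53 (3.28 to 3.81). All 3 of these anion carriers were higher in TG+AKI.

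The rodent-specific organic anion genes beside them included the highest ratio of the 72. Slc22a28 read 10.8 (458 reads) and 173 (5726 reads), 16 times as much (14.5 to 17.6). Its near copy Slc22a30 read 26.4 (1119 reads) and 242 (8007 reads), a ratio of 9.16 (8.6 to 9.76). Because 37% of the 100-base words in Slc22a28 and 24.3% of those in Slc22a30 occur in other genes, the division of reads between the pair is uncertain. Their sum does not depend on that division, and read 37.2 and 415, a ratio of 11.1 (10.6 to 11.8). How the counting treated reads that match several genes is not given in the sources used here. If such reads were left out, the values of these copies and their sums are too low. With Slc22a27 and Slc22a29 added, the sum of the 4 copies was 10.7 times as high (10.2 to 11.3). Both were scarce themselves. Slc22a29 read 2.05 and 8.49, from 87 and 281 reads, a ratio of 4.13 (3.24 to 5.32), and Slc22a27 read 0.401 and 1.33, from 17 and 44 reads, a ratio of 3.31 (1.86 to 6.19). Slc22a26 read 5.19 (220 reads) and 26.3 (870 reads), a ratio of 5.06 (4.36 to 5.9). At the other end of the run Slc22a19 (OAT5) read 37.2 (1579 reads) and 92.3 (3057 reads), a ratio of 2.48 (2.33 to 2.64).

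All 8 genes of the run were thus at least 2-fold higher, with ratios from 2.48 to 16. They stayed so under every other scaling, while a pseudocount of 1 took Slc22a27 under 2-fold and a pseudocount of 10 took Slc22a29 as well. Neither of the 2 other genes listed between them passed the filter. Of the 39 other genes that passed within 500 kb on either side, 1 was at least 2-fold higher (Macrod1) and 3 were lower, with a median difference of -0.13. The Slc22 genes of this stretch were thus higher where most of the genes around them were not.

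**Figure D2:**
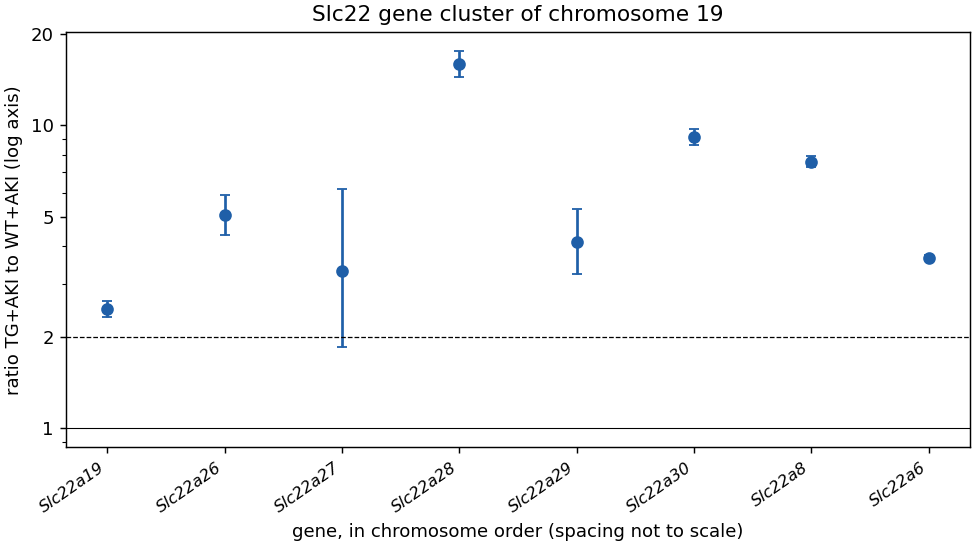
Ratio of the normalized value in TG+AKI to that in WT+AKI (y axis, log scale) for the 8 Slc22 genes of the chromosome 19 run in chromosome order, with exact 95% counting intervals as bars and 1 library per group. All 8 points lie above the dashed 2-fold line, from 2.48 for Slc22a19 to 16 for Slc22a28, and the interval of Slc22a27, which rests on 17 and 44 reads, reaches below it.

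Slc22 carriers of organic anions elsewhere in the genome gave the same direction. Slc22a22 (OAT-PG, chr15:57243767-57477625), a prostaglandin-specific carrier, read 8.73 (370 reads) and 115 (3794 reads), a ratio of 13.1 (11.8 to 14.6). It shares no 100-base word with another gene. Slc22a12 (URAT1, chr19:6535854-6543070), the urate exchanger of the apical membrane, read 585 (24785 reads) and 1491 (49371 reads), a ratio of 2.55 (2.51 to 2.59). It ranked first or second per kb among these transcripts in both kidneys. Nrxn2 overlaps it, 27.4% of its words occur there too, and the strand setting of the counting is not given in the sources used here. Slc22a13 (OAT10), which exchanges urate and nicotinate, read 70.2 and 90.2.

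The urate and anion efflux carriers of the Slc17 family were also higher. Slc17a3 (NPT4) read 200 (8467 reads) and 443 (14658 reads), a ratio of 2.22 (2.16 to 2.28), and was under 2-fold once library totals were made equal. Its neighbour Slc17a1 (NPT1) read 334 (14151 reads) and 611 (20244 reads), a ratio of 1.83 (1.79 to 1.87). Slc17a3, Slc17a1 and Slc17a4 lie together with Slc17a2 on chromosome 13 (chr13:23806941-23915009), and Slc17a4 read 2.17 and 2.75. The next carriers work inside the cell. Slc17a5, the lysosomal sialic acid exporter, read 85.2 and 91.3, a difference that turned negative with equal totals, and Slc17a9, the vesicular nucleotide carrier, read 1.11 and 0.513. In all, 1 of the 5 Slc17 genes that passed was at least 2-fold higher and none lower by the log2 measure.

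Of the 7 organic cation genes that passed, 1 was at least 2-fold higher and 1 lower, with a median of 0.91. Slc22a2 (OCT2), the main cation uptake route of the kidney, read 167 (7089 reads) and 314 (10411 reads), a ratio of 1.88 (1.82 to 1.94). It missed the 2-fold line by a small margin. Slc22a3 (OCT3), its neighbour on chromosome 17, went the other way from 1.72 to 0.483, on 73 and 16 reads, a ratio of 0.281 (0.152 to 0.487), and was within 2-fold with a pseudocount of 1 (-0.88 on the log2 scale). Slc47a1 (MATE1), the proton exchanger that releases cations and drugs into the urine, read 305 (12923 reads) and 687 (22737 reads), a ratio of 2.25 (2.2 to 2.3), and was under 2-fold with equal totals. Its neighbour Slc47a2 was under 1 in both libraries. Transcripts for the uptake (Slc22a2) and for the release (Slc47a1) of cations were thus both higher in the transgenic kidney.

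The carnitine and ergothioneine carriers form another run, on chromosome 11 (chr11:53864542-54030040), and had ratios from 1.49 to 1.88. Slc22a5 (OCTN2), which reclaims carnitine, read 171 (7269 reads) and 310 (10271 reads), a ratio of 1.81 (1.76 to 1.86). Slc22a21 (OCTN3) read 14.6 and 21.8, and the 2 share words with each other, but their sum of 186 and 332 gave a like ratio of 1.78 (1.73 to 1.84). Slc22a4 (OCTN1), which carries ergothioneine, read 38.8 (1647 reads) and 73 (2416 reads), a ratio of 1.88 (1.76 to 2). No gene of this run reached 2-fold by the log2 measure.

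The remaining Slc22 genes were mixed. Slc22a18, an imprinted gene without a settled substrate, read 129 (5484 reads) and 465 (15393 reads), a ratio of 3.59 (3.48 to 3.71). Slc22a17, described as a receptor of lipocalin-2, read 12.4 (526 reads) and 25.1 (830 reads), a ratio of 2.02 (1.81 to 2.26), and lost its 2-fold difference under either of the scalings above. Lipocalin-2 itself (Lcn2) read 250 and 1.87. Slc22a15, a carrier of zwitterions, was lower, at 6.11 (259 reads) and 2.23 (74 reads), a ratio of 0.366 (0.279 to 0.475). Slc22a23, with no known substrate, read 64 and 113, and Slc22a14 read 1.72 and 0.906. Slc22a3, Slc22a14 and Slc22a15 were the only 3 of the 23 with a ratio under 1.

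The Slco family, organic anion transporting polypeptides that carry bile acids, steroid conjugates and drugs, was divided. Of 8 genes, 2 were higher and 1 was lower, with a median of 0.35. Slco1a1 read 23.4 (991 reads) and 222 (7350 reads), a ratio of 9.5 (8.88 to 10.2). Slco1a6 read 46.4 (1967 reads) and 220 (7296 reads), a ratio of 4.75 (4.52 to 4.99). Their neighbour Slco1a4 (chr6:141805438-142186177) read 1.89 and 2.63, so the genes of this run did not differ alike. Slco2a1, the prostaglandin transporter, was lower, at 137 (5819 reads) and 35.3 (1170 reads), a ratio of 0.257 (0.242 to 0.274), or 3.88-fold lower. The pair of prostaglandin carriers therefore went in opposite directions, Slc22a22 higher and Slco2a1 lower. Slco4c1 (OATP4C1), the digoxin and uremic toxin carrier of the basolateral membrane, read 41.3 (1750 reads) and 48.7 (1612 reads), a ratio of 1.18 (1.1 to 1.26) that fell under 1 with equal totals. Slco2b1 (53.6 and 49.3), Slco3a1 (120 and 173) and Slco4a1 (22 and 12.7) were within 2-fold.

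**Figure D3:**
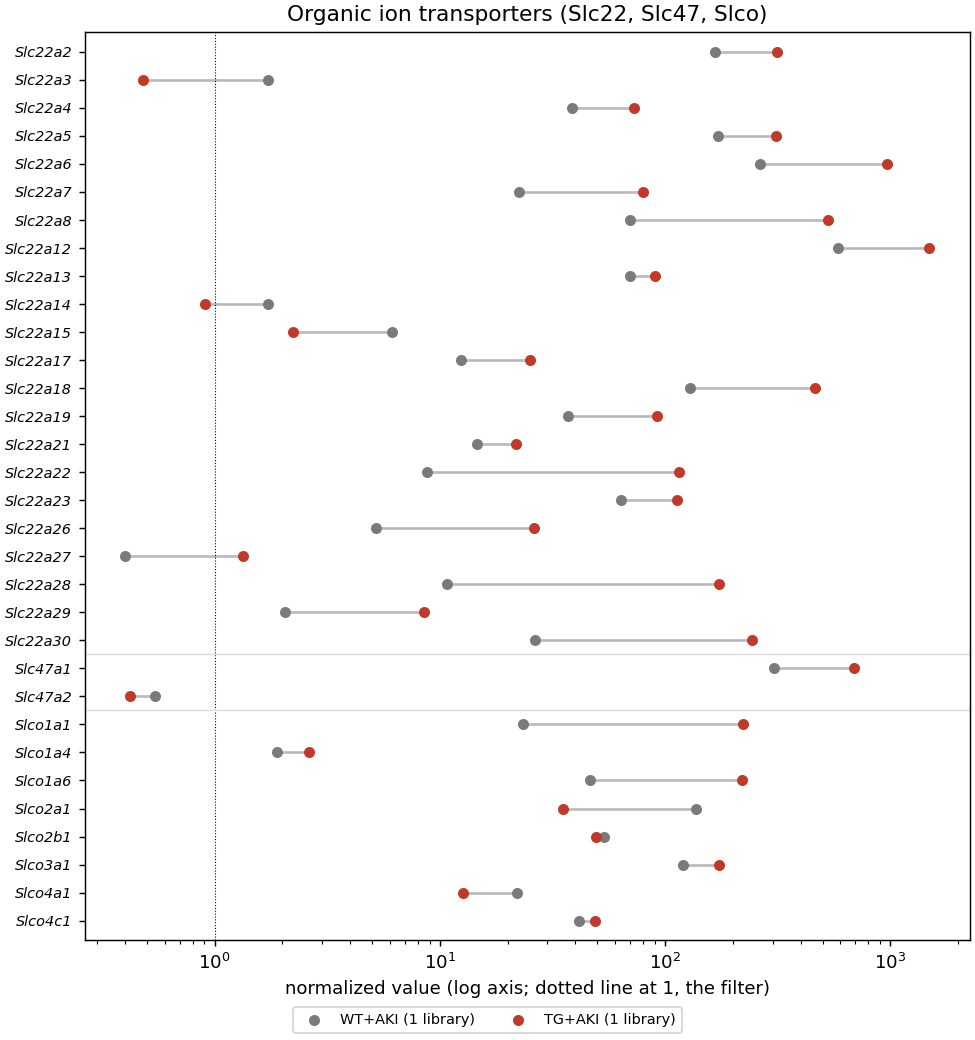
Normalized values of the Slc22, Slc47 and Slco genes described (x axis, log scale) in WT+AKI (grey) and TG+AKI (red), 1 library each, joined by a line, with the filter value of 1 dotted. Red lies to the right of grey for most genes, as for Slc22a28 (10.8 and 173) and Slco1a1 (23.4 and 222), and to the left for Slco2a1 (137 and 35.3) and the scarce Slc22a3, Slc22a14 and Slc22a15.

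Among the sodium-coupled sulfate and dicarboxylate carriers both directions occurred, with 2 of 4 at least 2-fold higher and none lower. Slc13a3 (NaDC3), whose dicarboxylates are exchanged for organic anions by Slc22a6 and Slc22a8 at the basolateral side, read 242 (10245 reads) and 685 (22694 reads), a ratio of 2.84 (2.77 to 2.9). Slc13a1 (NaS1), which reclaims sulfate from the urine, went from 789 (33466 reads) to 419 (13868 reads), a ratio of 0.531 (0.52 to 0.541). It was 1.88-fold lower. It was past 2-fold with equal totals and with the median ratio of abundant genes set to 1, and within 2-fold with DESeq2 size factors. Slc13a2 (NaDC1), the apical citrate carrier, read 44.1 (1870 reads) and 69.3 (2295 reads), a ratio of 1.57 (1.48 to 1.67), and 10.4% of its words lie in its antisense gene. Slc13a4, a second sulfate carrier, was scarce and read 2.81 (119 reads) and 6.88 (228 reads), a ratio of 2.45 (1.96 to 3.09), under 2-fold with equal totals. Slc13a5 was under 1 in both libraries.

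In the bile acid family 2 of the 5 genes that passed were higher and none lower by the log2 measure. Slc10a2 (ASBT), which takes bile acids back across the apical membrane, read 53.2 (2257 reads) and 123 (4065 reads), a ratio of 2.31 (2.19 to 2.43), under 2-fold with equal totals. Slc10a5, with no known substrate, read 22.5 (954 reads) and 68.6 (2273 reads), a ratio of 3.05 (2.83 to 3.29). The rest pointed down or were near level. Slc10a6, a carrier of steroid sulfates, read 3.42 and 1.66, Slc10a3 read 18.5 and 10.8, and Slc10a7 read 10.8 and 11.3. Slc10a1, the hepatocyte carrier, was under 1 in both.

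Of 3 peptide carriers that passed none was 2-fold higher and 1 was lower. Slc15a2 (PEPT2), which reclaims filtered peptides, read 57.8 (2451 reads) and 99.5 (3295 reads), a ratio of 1.72 (1.63 to 1.81). Slc15a1 (PEPT1) was listed at 0.33 and 0.453, from 14 and 15 reads. The lysosomal carrier Slc15a3, known from immune cells, went from 6.37 (270 reads) to 1.42 (47 reads), a ratio of 0.223 (0.16 to 0.305), or 4.49-fold lower. Macrophage markers moved in the same direction, with 7 of 9 at least 2-fold lower and none higher, and their part in this difference was not tested. Slc15a4, the other lysosomal carrier, read 13.7 and 14.4.

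The 13 Slc16 genes, which carry lactate, other monocarboxylates and aromatic amino acids, all passed the filter, and 3 were at least 2-fold higher and 2 lower. Slc16a7 (MCT2), the high-affinity lactate and pyruvate carrier, read 39 (1652 reads) and 132 (4371 reads), a ratio of 3.39 (3.2 to 3.59). Slc16a1 (MCT1), the common lactate carrier, went the other way from 94.8 (4019 reads) to 50.9 (1684 reads), a ratio of 0.536 (0.506 to 0.568). It was past 2-fold lower with equal totals and with the median ratio of abundant genes set to 1, and within 2-fold with DESeq2 size factors. Slc16a3 (MCT4), the lactate exporter of glycolytic cells, was near the filter in WT+AKI at 1.04 (44 reads) and read 0.362 (12 reads) in TG+AKI, a ratio of 0.349 (0.168 to 0.673), and was within 2-fold with a pseudocount of 1 (-0.58 on the log2 scale). Per kb of transcript, Slc16a1 stood at 21.4 and 11.5 and Slc16a7 at 3.55 and 12.

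Other Slc16 genes filled the range between. Slc16a10 (TAT1), which lets aromatic amino acids such as tryptophan, a precursor of the substrate of Inmt, leave at the basolateral side, read 31.9 (1352 reads) and 89.2 (2954 reads), a ratio of 2.8 (2.62 to 2.99). Slc16a9 (MCT9), linked to carnitine efflux, read 123 (5214 reads) and 203 (6734 reads), a ratio of 1.65 (1.59 to 1.71). Slc16a6 (MCT7) was lower, at 54.8 (2323 reads) and 11.7 (388 reads), a ratio of 0.214 (0.192 to 0.238), the lowest of the 72. Of its words, 23.2% occur in the overlapping gene Amz2. Slc16a4, Slc16a5, Slc16a11, Slc16a12, Slc16a13 and Slc16a14 had ratios from 0.957 (Slc16a11) to 1.73 (Slc16a4).

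The vitamin carrier families Slc19 and Slc23 did not share the upward direction. Of 6 genes that passed, none was 2-fold higher and 2 were lower, with a median of -0.07. These counts include Slc23a3, which is placed here by its family alone. Slc19a2, a thiamine carrier, read 69.2 (2933 reads) and 23.8 (788 reads), a ratio of 0.344 (0.318 to 0.372), or 2.91-fold lower. Slc19a3, the other thiamine carrier, read 16.9 (717 reads) and 23.9 (790 reads), a ratio of 1.41 (1.27 to 1.56). Per kb of transcript, Slc19a2 stood at 19.4 and 6.66 and Slc19a3 at 5.69 and 8.02, so the 2 lay closer together in TG+AKI. Slc19a1, the reduced folate carrier, read 77.3 (3277 reads) and 92 (3047 reads), a ratio of 1.19 (1.13 to 1.25) that turned under 1 with equal totals. The ascorbate carrier of the apical membrane, Slc23a1 (SVCT1), read 306 (12959 reads) and 278 (9222 reads), a ratio of 0.911 (0.887 to 0.936). Slc23a2 (SVCT2) read 26.7 (1131 reads) and 26.5 (877 reads), with an interval that held 1 (0.993, 0.908 to 1.09). Slc23a3, without a known substrate, went from 38.5 (1632 reads) to 16.8 (555 reads), a ratio of 0.435 (0.395 to 0.48).

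No nucleoside carrier reached 2-fold in either direction among the 4 that passed. Slc29a3 (ENT3), a lysosomal carrier, came nearest at 88.5 (3750 reads) and 167 (5532 reads), a ratio of 1.89 (1.81 to 1.97). Slc29a1 (ENT1), which lets adenosine pass the plasma membrane, read 38.5 (1633 reads) and 40 (1324 reads), and its interval held 1 (1.04, 0.965 to 1.12). Slc28a1 (CNT1), the sodium-coupled carrier of the apical membrane, read 15.8 (669 reads) and 18.7 (618 reads), a ratio of 1.18 (1.06 to 1.32) that turned under 1 with equal totals. Slc29a2 (ENT2) read 3.02 and 4.38. Slc28a2 (CNT2) was listed at 0.307 and 0.483, from 13 and 16 reads, and Slc28a3 was not analysed here. The 8 genes under 1 in both libraries were Slc10a1, Slc13a5, Slc15a1, Slc17a2, Slc17a8, Slc23a4, Slc28a2 and Slc47a2, for which no direction is read.

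**Figure D4:**
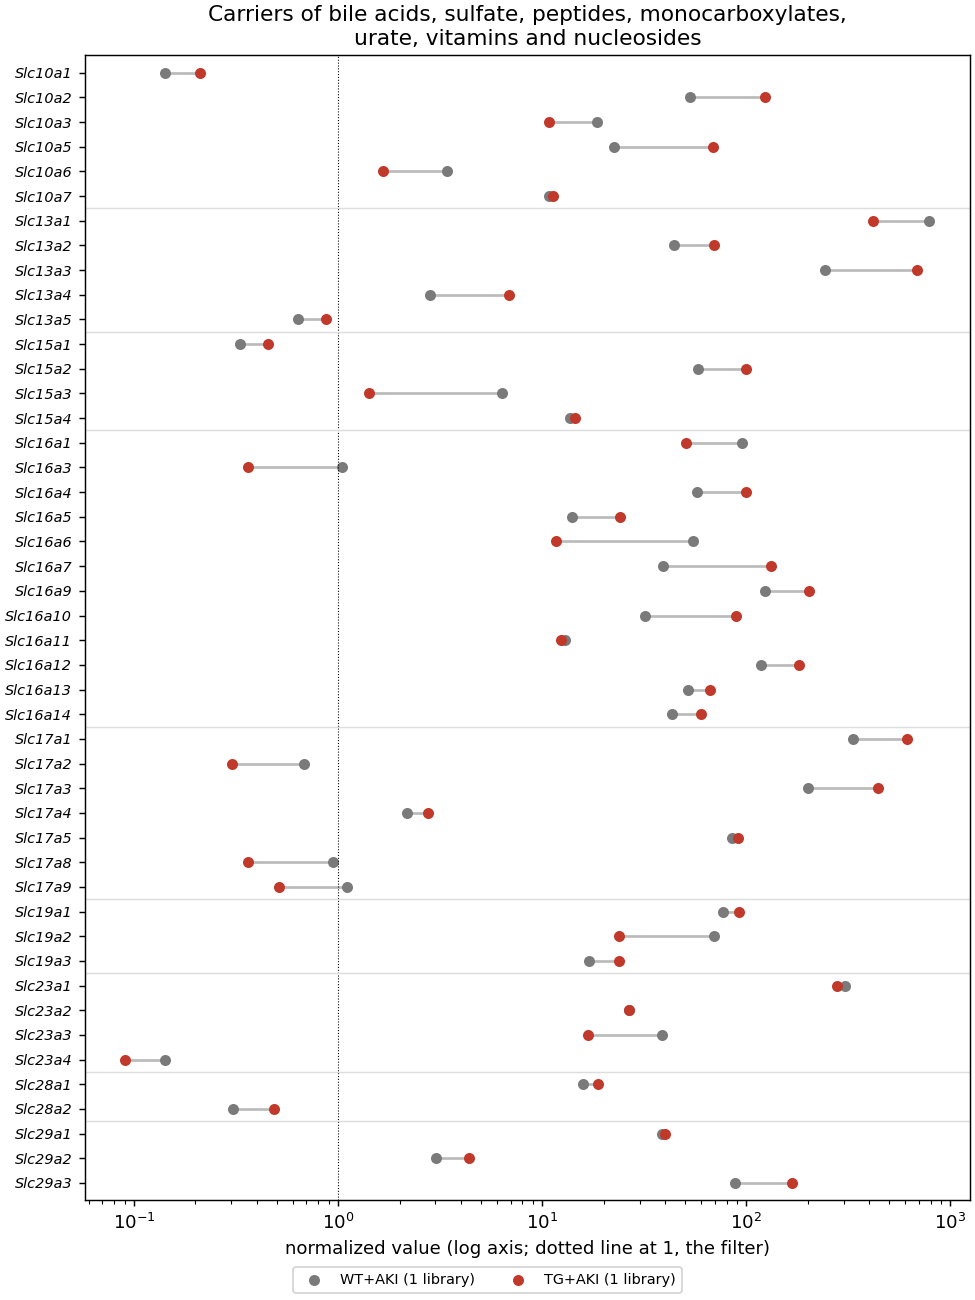
Normalized values of the Slc10, Slc13, Slc15, Slc16, Slc17, Slc19, Slc23, Slc28 and Slc29 genes described (x axis, log scale) in WT+AKI (grey) and TG+AKI (red), 1 library each, joined by a line, with the filter value of 1 dotted. Both directions occur, with red to the right for Slc13a3 (242 and 685) and Slc16a7 (39 and 132) and to the left for Slc13a1 (789 and 419), Slc16a6 (54.8 and 11.7) and Slc19a2 (69.2 and 23.8).

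The counts differed with the level. Of the 27 genes that reached at least 100 in a library, 15 were at least 2-fold higher and 1 (Slco2a1) was lower. Among the 32 whose higher value lay between 10 and 100, 6 were higher and 3 lower, and among the 13 between 1 and 10, 3 were higher and 4 lower. The higher of both values sets these classes, so the counts are a description. All genes were not counted by the same classes, so whether this gradient is particular to the transporter genes was not tested. With a filter of 10 instead of 1, 21 of 59 transporter genes were higher and 4 lower. Of all 10294 genes that passed that filter, 625 were higher and 784 lower. By membrane, 4 of 8 basolateral and 6 of 15 apical carriers were higher and none of either was lower, while of 5 intracellular carriers none was higher and 1 was lower. The other 44 genes that passed were not assigned a side, and 14 of them were higher and 7 lower. The classes by membrane therefore leave out most of the lower genes. The 62 genes that passed and had under 10% of their words in other genes gave 21 higher and 7 lower.

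To compare levels between genes, values were divided by the length of the longest coding transcript in kb. Which transcript the kidney uses was not determined, so all values per kb, ranks and shares rest on these lengths. Slc16a7, for example, was taken at 10981 bases and Slc22a6 at 3983. On this scale the 80 genes summed to 2130 in WT+AKI and 4156 in TG+AKI, 1.95 times as much. The Slc22 family made up 37.3% of the sum in WT+AKI and 54.1% in TG+AKI. The Slc13 family went from 19% to 9.46% of it, at sums per kb of 404 and 393. The make-up of the transporter transcripts therefore differed as well as their amount. Slc13a1 ranked first in WT+AKI (316 per kb, 14.9% of the sum) and Slc22a12 second (263 per kb). In TG+AKI Slc22a12 ranked first (670 per kb, 16.1%), followed by Slc17a1 (302), Slc22a18 (299), Slc47a1 (260) and Slc22a6 (242), and Slc13a1 was at 168. The 5 leading genes took 45.2% and 42.7% of the sum.

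Genes that work with these carriers were mixed. Of the ABC efflux pumps, which expel drugs and conjugates with the energy of ATP, 1 of 9 was at least 2-fold higher and 2 were lower, with a median of -0.45. Abcc3 read 13.9 and 2.2, Abcb1b, a P-glycoprotein gene, read 105 and 22.8, and Abcc6 read 7.24 and 22.1. Among 9 further carriers of urate, monocarboxylates, bile acids and folate, 4 were higher and none lower (median 0.93). These were Slc5a12, a lactate carrier (140 and 648), Slc26a1, a sulfate and oxalate exchanger (48.7 and 175), Slc46a1, a proton-coupled folate carrier (17.4 and 39.6), and Folr1, the folate receptor (165 and 397). Of 8 scaffold and chaperone genes 2 were higher and none lower. Pdzk1, which anchors apical carriers such as Slc22a12, read 431 and 1082, and Cltrn read 545 and 1718. The sodium pump subunits, whose work drives the sodium-coupled members, gave none higher or lower of 6 that passed (median 0.11). Of 17 transcription factor genes known to act on proximal transporters 16 passed, with 2 higher and 1 lower (median 0.21). Hnf4a read 397 and 1072, Maf read 103 and 280, and Nfe2l2 read 212 and 98.1.

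Markers of the nephron segments moved with the transporter genes, and their part in the differences above was not tested. Of 25 proximal tubule markers 19 were at least 2-fold higher and none lower (median 1.66), and they summed to 15223 and 52624, a ratio of 3.46. Gatm (66.3 and 1075), Slc7a13 (40.7 and 534) and Cyp2e1 (130 and 1422) were among the most different. The marker sums are weighted to abundant genes, above all Kap (3958 and 17611). Of the 72 transporter genes, 11 had a ratio above that of the marker sum. These were Slc22a6, Slc22a7, Slc22a8, Slc22a18, Slc22a22, Slc22a26, Slc22a28, Slc22a29, Slc22a30, Slco1a1 and Slco1a6. Above the marker median of log2 differences, which is not weighted in this way, there were 12. All 12 markers of the injured tubule were lower (median -4.07, summed 14200 and 981), among them Havcr1 (1169 and 2.78), which encodes KIM-1, and Krt20 (399 and 0.362). Other segments differed too, as the thick ascending limb and distal tubule had 6 of 10 markers higher and none lower (median 1.18), with Egf at 54.3 and 1160. The collecting duct had 1 of 8 higher (median 0.51), the endothelium none of 8 in either direction (median -0.02) and the podocyte none of 6 (median -0.06). Fibroblast markers were lower in 4 of 6 (median -1.23), beside 7 of 9 macrophage markers (median -1.37). Of 6 liver genes 2 were higher and 3 lower, which were the fibrinogen genes (Fgg 592 and 22.2). The globin and Alas2 genes stayed at or under 1.99 in both libraries, and none of the 4 Y-linked genes reached 2-fold (median 0.11).

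**Figure D5:**
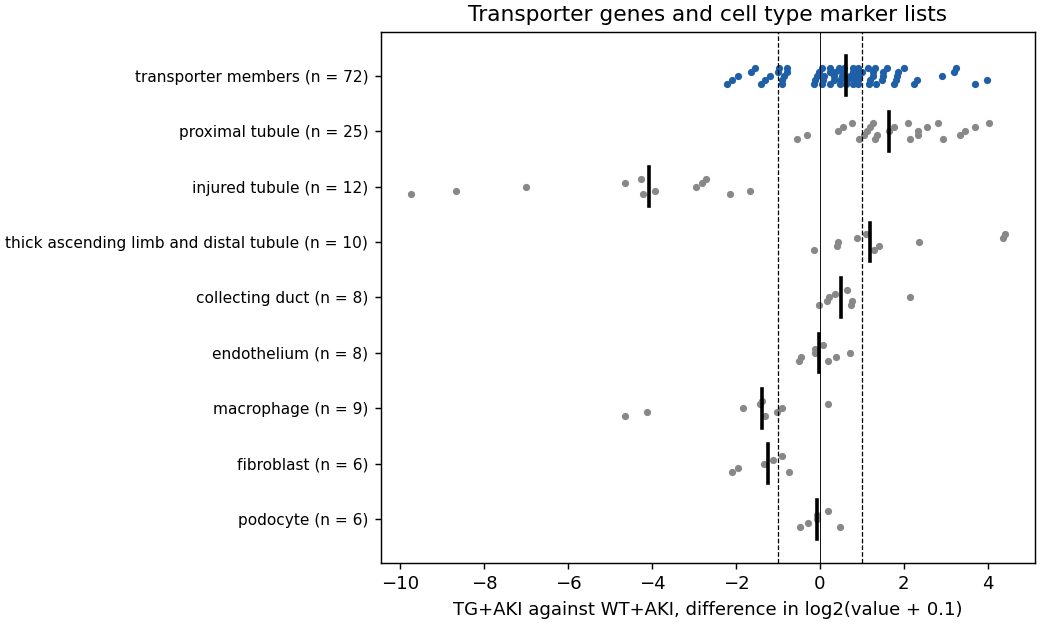
Difference between TG+AKI and WT+AKI in log2(value + 0.1) (x axis) for the 72 transporter genes (blue) and for marker genes of 8 cell types or states (grey), 1 point a gene, with black bars at the medians and dashed lines at 2-fold. The transporter median (0.63) lies between those of the proximal tubule markers (1.66) and the endothelium (-0.02), and the injured tubule markers lie apart at a median of -4.07.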

How the data were processed

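Whole-kidney RNA was made into TruSeq Stranded mRNA libraries, 1 for each of the 2 groups. By the methods, reads were checked with FastQC, aligned with STAR 2.7.3a, counted with HTSeq and normalized with DESeq2, and FPKM were estimated with Cufflinks 2.2.1. The submitters' processing notes also name edgeR and build mm10. The authors deposited 1 table of normalized signal values for both libraries. Every deposited value was a whole multiple (tolerance 0.01) of the value of 1 read, 0.0236 in WT+AKI and 0.0302 in TG+AKI, so the values are not scaled by gene length and reads were recovered for 100% of genes. A count of 3 reads stood at 0.0708 and 0.0906. The transporter genes took 0.66% and 1.05% of the reads counted to listed genes. Groups followed the library names in the labels.

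Genes that reached a value of 1 in one library or both were compared as log2(value + 0.1), and at least 2-fold was the call. A higher filter and pseudocount (10 and 1) proved too strict for this scale and are alternatives. Ratios carry exact Clopper-Pearson intervals at 95% (scipy 1.17.1), and the calculation was tested on simulated data. Shared sequence is the share of 100-base words of a gene's transcripts found in other genes (GENCODE M21), with a limit of 10%. Coding sequences were aligned with Biopython 1.88. Coordinates are GRCm38, the same assembly as mm10. Genes closer than 500 kb were taken as a run. Genes called are named with values, apart from a few items not reported here, together with a list of carriers named whatever their values. Members, lists and thresholds were chosen with earlier results of these data known.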

Additional observations from a re-analysis of the deposited data

How the results depend on the processing

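With 1 library per group no replicate could be left out, and no paired analysis was possible because the groups share no replicates. No gene at least 2-fold higher or lower changed sign. A pseudocount of 1 moved the median of the injured tubule markers from -4.07 to -3.32 and took Slc16a3, Slc22a3, Slc22a17 and Slc22a27 within 2-fold. A pseudocount of 10 moved it to -2.66, the transporter median to 0.45, the lower transporter genes from 8 to 3 and all genes to 372 higher and 408 lower. Equal library totals gave 15 lower transporter genes, a transporter median of 0.36, 690 higher genes of all and an overall median of -0.29, 7 lower partner genes (pumps, scaffolds, factors and further carriers) with a median that changed sign from 0.19 to -0.09, and medians of 1.38 for proximal and -4.34 for injured tubule markers. Setting the median ratio of abundant genes to 1 gave 0.49, 0.04, 1.51 and -4.21 for the transporter, partner, proximal and injured medians. Without a filter the transporter median was 0.52. A filter of 10 left 4 lower transporter genes, and 625 higher and 784 lower of all. Equal totals changed the sign of 7 transporter genes (Slc10a7, Slc15a4, Slc17a5, Slc19a1, Slc28a1, Slc29a1 and Slco4c1) and kept 18 of the 24 higher and all 8 lower calls. DESeq2 size factors lost no call, but they scaled TG+AKI by only 1.01 against the deposited values, so this is a weak check. Requiring an exact binomial test of the reads as well changed no count. A value of 1 already stood for 42.4 and 33.1 reads, so the test could remove little. That test compares the libraries and not the conditions. Depth limits the genes between 1 and 10, as Slc16a3 (44 and 12 reads) shows.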
